A study of Mus musculus with 33 samples.

Results

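The transcriptome of the wild-type mouse kidney was compared between embryonic day 11.5 (E11.5) and embryonic day 15.5 (E15.5). The comparison used 10 of the 24 specimens of the series: every specimen labelled wildtype, 4 at E15.5 (1 female and 3 male) and 6 at E11.5 (4 female and 2 male). Each E15.5 specimen had been sequenced in 2 runs, whose counts were summed, and each E11.5 embryo in 1 run, so the 10 specimens came from 14 libraries. No allele, transgene or treatment is recorded for them, and the remaining specimens of the series were labelled heterozygous or knockout. RNA was extracted from snap-frozen whole kidney. The labels do not say whether a specimen is 1 kidney, 1 animal or a pool, so the specimen was the replicate. The main model was fitted to all 24 specimens. Its p-values thus rest on a spread estimated over every group, heterozygous and knockout included, and not over these 10 alone. Both stages have libraries labelled batch 1 and batch 2, but no label says that a batch number stands for the same run at both stages, so stage and sequencing run cannot be told apart.

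The mouse kidney forms from the ureteric bud, an epithelial tube, and the metanephric mesenchyme around it. Cells of the mesenchyme that cap the bud tips are the progenitors of the nephron, and Six2 keeps them undifferentiated. Progenitors that receive Wnt signals condense, become epithelial and pattern into the glomerulus and the successive segments of the tubule, while the bud becomes the collecting duct. Surrounding stroma gives rise to interstitial, mural and renin cells. At E11.5 the bud has just entered the mesenchyme, and at E15.5 nephrons of several ages lie beside progenitors that are still dividing.

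Summed counts, in units of M (1e6 counts), ran from 46.8 to 65.1 M per E15.5 specimen and from 13.4 to 21.7 M per E11.5 embryo. The 3 E11.5 embryos labelled batch 1 (replicates 1 to 3) stood apart: 20.5 to 26.6% of their counts fell on ribosomal RNA symbols, against 0.223 to 0.293% in the 3 of batch 2 (replicates 4 to 6) and 0.489 to 0.764% at E15.5. Over the 10 specimens the first principal component held 72.1% of the variance and separated the stages, and the second, with 11.03%, separated the E11.5 batches. Specimens correlated at 0.995 to 0.998 within E15.5, at 0.961 to 0.987 within E11.5 and at 0.890 to 0.918 between stages. E11.5 replicate 6 stood apart on the third component. It carried most of the counts of Krt5, Krt14, Trp63 and Wnt7b, and with replicate 1 it had low endothelial and smooth muscle counts. The tissue label was checked on kidney markers: at both stages every specimen had Six2, Gdnf, Ret, Wnt11 and Foxd1 above 10 CPM (counts per 1e6 counts, with library sizes scaled by the TMM method).

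Of 17362 genes tested, 4590 were higher at E15.5 (26.4%) and 4518 lower (26.0%), with edgeR's quasi-likelihood test at an adjusted p (Benjamini-Hochberg) under 0.05. Of these 9108 calls, 3677 were smaller than 1.5-fold. A stricter test, against a 2-fold change, called 1241 genes higher (7.15%) and 710 lower (4.09%). In 4203 genes (24.2%) all 4 E15.5 specimens lay above all 6 E11.5 embryos, and in 3448 (19.9%) all lay below. In an exact two-sided permutation test over the 10 specimens, 57 of 94 key genes reached the smallest p that 210 splits allow (p = 0.00476) and 69 had p under 0.05. The key genes were chosen with earlier results of these data known, and other genes were not put to this test. These shares are thus no separate support. The median log2 fold change over all genes tested was -0.017, a value that the scaling itself holds near 0. With 52.5% of all genes called, a count of called members of a gene list has to be read beside these shares.

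**Figure D1:**
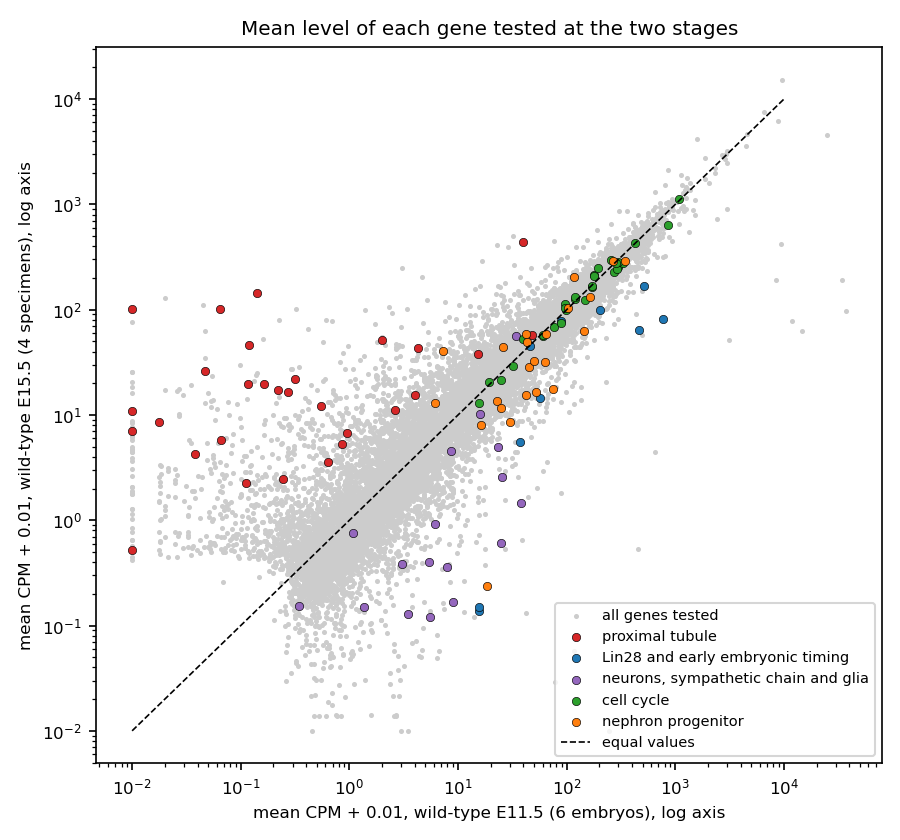
Mean level of each gene tested at E11.5 (horizontal axis, 6 embryos) and E15.5 (vertical axis, 4 specimens), both as CPM + 0.01 on log axes; coloured points are members of 5 gene lists and the dashed line marks equal values. Of the proximal tubule genes 28 of 29 were called higher, of the neural genes 14 of 17 and of the Lin28-related genes 8 of 10 were called lower, and cell cycle genes lie along the line. Of all genes tested, 26.4% were called higher and 26.0% lower.

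Genes of the proximal tubule, the segment that reclaims most filtered solutes, showed the highest median change of the 27 lists examined. Of 29 members tested, 28 were higher at E15.5 (against 26.4% of all genes tested) and 27 passed the 2-fold test (against 7.15%), and 0 were lower (against 26.0%), with a median log2 fold change of 6.07. With the 4 members that had 0 counts in all E11.5 embryos set to their lower bound, the median was 5.85. In whole organs, a change in the number of cells of a type and a change in RNA per cell cannot be told apart. Slc34a1, the phosphate carrier of the brush border (ENSMUSG00000021490, mm10 chromosome 13, 55398187 to 55415592, plus strand), had 0 counts in all 6 E11.5 embryos and 114, 90.8, 101 and 103 CPM in the 4 E15.5 specimens. Against a floor of 3 counts over the E11.5 group, this was at least 3535-fold higher. Hnf4a, a nuclear receptor that drives proximal tubule genes (ENSMUSG00000017950, mm10 chromosome 2, 163506808 to 163572910, plus strand), had 108, 96.3, 99.1 and 102 CPM at E15.5, and its lowest, median and highest values at E11.5 were 0, 0.0555 and 0.0985. Its log2 fold change was 10.60 ± 0.21 (SE; adjusted p = 6.9e-20). All E15.5 specimens thus held Hnf4a transcripts that were nearly absent at E11.5, where the 6 embryos gave 6 counts in total.

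Lrp2, which encodes the endocytic receptor megalin (ENSMUSG00000027070, mm10 chromosome 2, 69424340 to 69586065, minus strand), was already present at E11.5, with lowest, median and highest values of 30.8, 40.5 and 46.6 CPM. At E15.5 the 4 specimens had 461, 425, 432 and 450.5 CPM, an 11.2-fold difference of the means (log2 3.47 ± 0.14, adjusted p = 7.4e-15). The groups were far apart, but Lrp2 differed from Slc34a1 and Hnf4a in having at least 30.8 CPM in each E11.5 embryo. Slc22a6, an organic anion carrier, rose by 8.97 on the log2 scale, Pck1, a gluconeogenic enzyme, by 7.39, and Cubn, the partner of megalin, by 4.67. The smallest increase was that of Slc4a4, the basolateral bicarbonate carrier, from 15.2 ± 3.22 CPM (SD, n = 6) to 37.9 ± 3.19 CPM (SD, n = 4), with a log2 fold change of 1.30 ± 0.14. Dab2, an endocytic adaptor, did not pass the test, with a log2 fold change of 0.14 and adjusted p = 0.64. The list's median was 6.17 with batch 1 libraries alone and 6.17 with batch 2 libraries alone.

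Promoter sequences of the proximal tubule genes were searched for the letters of HNF4, the family of Hnf4a. RefSeq promoters (GRCm38.p6, 250 bases before to 50 after a start) were found for 25 of the 30 proximal tubule genes, 30 promoters in all. The HNF4 letters CAAAGTCCA were in 2 of these 30 on either strand (6.67%). They were in 0.475% of all 32851 promoters and in 0.39% of promoters of genes tested. These shares are descriptions with no test, and a match is not a measured binding site. Both promoters are printed here 5′ to 3′ on the gene's strand, with the match in capitals. Slc3a1 (a subunit of the cystine carrier) lies at chr17:85028097-85028396 on the plus strand and Pdzk1 (a brush border scaffold) at chr3:96829815-96830114 on the plus strand.
Slc3a1: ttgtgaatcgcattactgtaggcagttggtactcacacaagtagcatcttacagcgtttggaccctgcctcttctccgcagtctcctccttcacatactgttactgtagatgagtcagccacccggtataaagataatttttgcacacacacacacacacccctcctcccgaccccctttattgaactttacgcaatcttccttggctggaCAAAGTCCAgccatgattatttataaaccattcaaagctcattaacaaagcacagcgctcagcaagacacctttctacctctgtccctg
Pdzk1: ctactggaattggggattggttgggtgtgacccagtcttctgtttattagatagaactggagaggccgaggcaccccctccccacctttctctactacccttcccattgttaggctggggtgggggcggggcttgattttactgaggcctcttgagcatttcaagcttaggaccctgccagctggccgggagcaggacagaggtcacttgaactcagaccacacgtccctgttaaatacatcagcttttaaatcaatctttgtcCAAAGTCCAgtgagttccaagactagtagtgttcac
The matches begin 39 bases before the start in Slc3a1 and 14 after it in Pdzk1. Transcripts of Slc3a1 and Pdzk1 rose by 2.81 and 8.55 on the log2 scale.

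Loop of Henle and distal tubule genes also rose: 19 of 20 tested (95%, against 26.4% of all genes tested). Past the 2-fold test were 14 (against 7.15% of all genes tested), and the median log2 fold change was 3.67. Slc12a1, the sodium-potassium-chloride carrier of the thick ascending limb (ENSMUSG00000027202, mm10 chromosome 2, 125152505 to 125230002, plus strand), had 131, 127, 127 and 131 CPM in the E15.5 specimens. In the E11.5 embryos it had 1 count in all, from replicate 3. The ratio of pooled levels was 13380, with a 95% exact interval of 2401 to 528400 for counting error only. Kcnj1, the potassium channel of the same limb, had 13.7, 13.8, 12.8 and 13.2 CPM against 0 to 0.178 CPM at E11.5. Slc12a3, the thiazide-sensitive carrier of the distal convoluted tubule, had 3.94, 2.62, 3.32 and 3.45 CPM at E15.5 against 0 to 0.178 at E11.5 (log2 5.18 ± 0.54, adjusted p = 4.3e-08). Umod, the uromodulin gene, had 4.67, 5.42, 4.55 and 4.51 CPM against 0.0493 to 0.671 (log2 4.03 ± 0.37, adjusted p = 4.2e-08). For all of these genes the stages did not overlap. Ppp1r1a, a phosphatase inhibitor, was the exception in direction, with 8.55, 10.3 and 14.3 CPM as lowest, median and highest values at E11.5 and 6.61 to 7.66 CPM at E15.5 (log2 -0.63 ± 0.16, adjusted p = 0.0020).

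**Figure D2:**
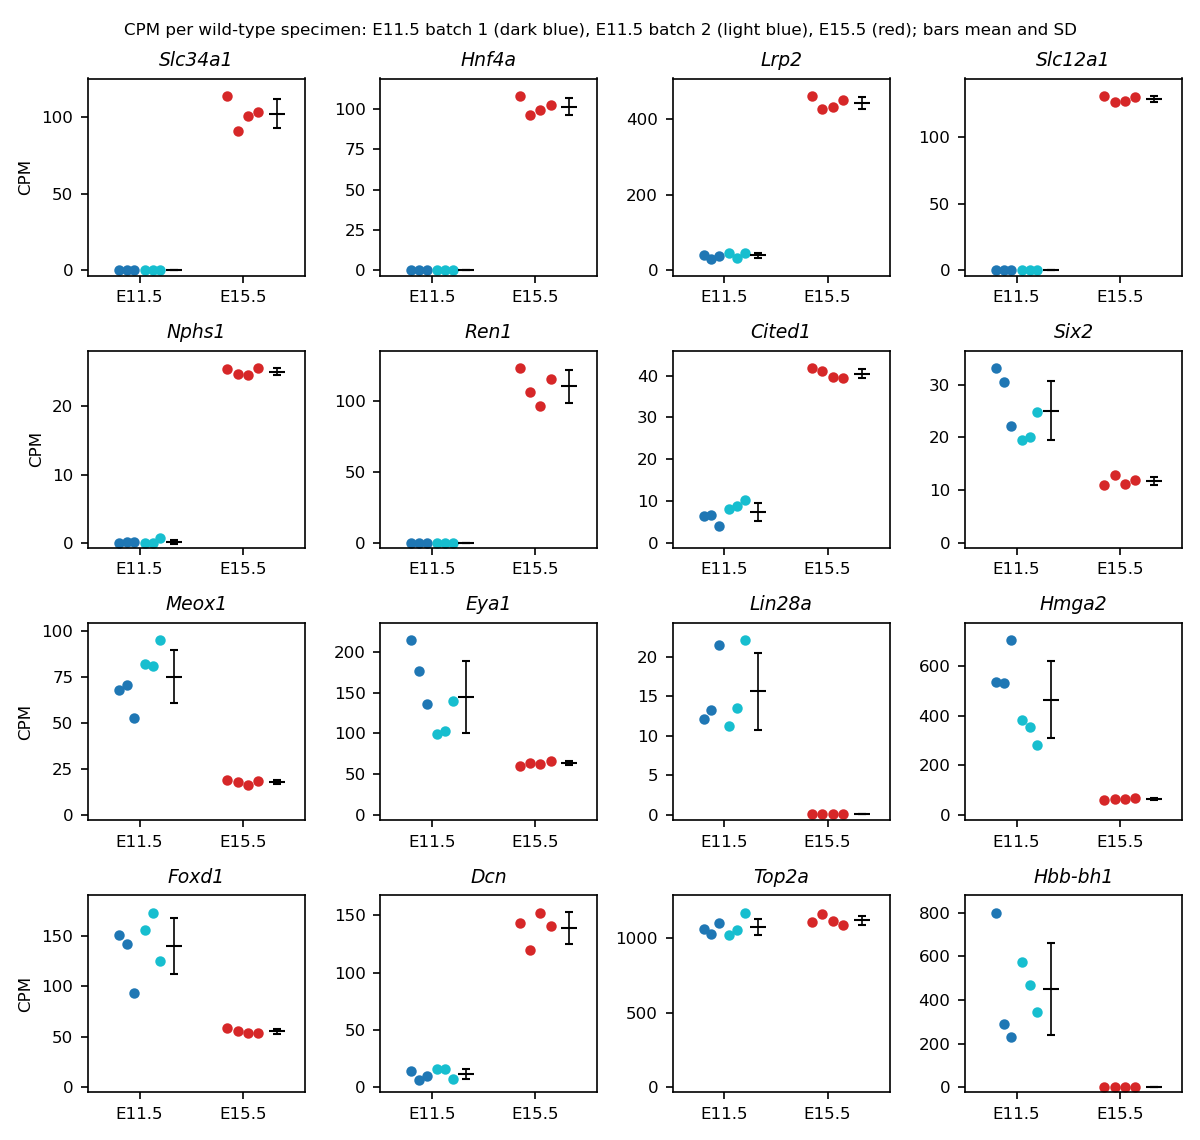
CPM of 16 genes in each wild-type specimen (vertical axes, from 0), with E11.5 embryos of batch 1 in dark blue, those of batch 2 in light blue and E15.5 specimens in red; black marks give the mean and SD of each stage. Slc34a1, Hnf4a, Slc12a1, Nphs1 and Ren1 are near 0 in every E11.5 embryo, Lin28a and Hbb-bh1 are near 0 in every E15.5 specimen, and Top2a overlaps.

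Genes of the early nephron, the vesicle and S-shaped stages, rose in 21 of 22 cases (95.5%, against 26.4% of all genes tested). Past the 2-fold test were 11 (against 7.15% of all genes tested), and the median log2 fold change was 2.10. Wnt4, the signal that turns mesenchyme into epithelium, had 65.5, 69.3, 63.0 and 71.0 CPM at E15.5 and lowest, median and highest values of 21.3, 24.7 and 43.2 at E11.5 (log2 1.23 ± 0.16, adjusted p = 1.4e-06). Lhx1, a homeodomain factor of the vesicle (ENSMUSG00000018698, mm10 chromosome 11, 84518284 to 84525535, minus strand), had 14.9, 15.98, 13.1 and 15.9 CPM against 1.77 to 4.48 (log2 2.45 ± 0.23, adjusted p = 5.6e-09). The Notch ligand genes Jag1 and Dll1 rose by 1.98 and 2.42 on the log2 scale, Lfng, a modifier of Notch, by 2.41, and Pax8 by 2.47. Irx1, a factor of the middle nephron segment, had 25.2, 23.7, 21.8 and 22.7 CPM at E15.5 and at most 1.23 CPM in 5 E11.5 embryos, with 6.47 in replicate 6. Its log2 fold change was 3.74 ± 0.42 with that embryo and 4.69 without it (adjusted p = 7.5e-14). Fgf8 rose from the E11.5 range of 1.25 to 3.49 CPM to an E15.5 range of 4.51 to 5.61 CPM, a call lost without E15.5 replicate 2 (log2 0.75, adjusted p = 0.058). Sfrp2, a secreted Wnt inhibitor, was the only member called lower (log2 -0.61 ± 0.23, adjusted p = 0.030). Its stages overlapped, and the call was lost without E11.5 replicate 5 or 6 (adjusted p = 0.057 and 0.055), without E15.5 replicate 1, 3 or 4 (adjusted p = 0.059, 0.069 and 0.066) and without the sex term.

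Podocyte genes mostly rose. Of 20 tested, 14 were higher (70%, against 26.4% of all genes tested), 2 lower (10%, against 26.0%) and 4 did not pass. The median log2 fold change was 0.72. Nphs1, the gene of nephrin, had 25.5, 24.8, 24.6 and 25.6 CPM at E15.5. At E11.5 its values were 0, 0.0297 and 0.661 CPM, the highest in replicate 6, and the log2 fold change was 7.31 with that embryo and 9.75 without it. Podxl, which coats the podocyte surface, rose 3.07-fold (log2 1.69 ± 0.17, adjusted p = 1.7e-08). Foxc2 fell from the E11.5 range of 138 to 178 CPM to an E15.5 range of 74.6 to 81.4 CPM (adjusted p = 1.4e-10), and Synpo fell by 0.71 on the log2 scale. Magi2, Plce1, Nes and Actn4 did not pass the test.

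Nephron progenitor genes moved in both directions. Of 23 tested, 13 were lower at E15.5 (56.5%, against 26.0% of all genes tested), 4 higher (17.4%, against 26.4%) and 6 did not pass. The median log2 fold change was -0.60, or -0.34 without the embryos above 5% ribosomal RNA. Six2, the gene that defines these cells (ENSMUSG00000024134, mm10 chromosome 17, 85684277 to 85688274, minus strand), had 11.01, 12.8, 11.05 and 11.9 CPM in the E15.5 specimens and lowest, median and highest values of 19.5, 23.5 and 33.1 at E11.5. It was 2.14-fold lower at E15.5, with no overlap (log2 -1.13 ± 0.16, adjusted p = 3.1e-06), but it did not pass the 2-fold test (adjusted p = 0.49). The difference was -1.35 with batch 1 and -0.72 with batch 2 libraries. Cited1, a transcriptional cofactor of the least committed progenitors (ENSMUSG00000051159, mm10 chromosome X, 102247381 to 102252181, minus strand), went the other way, with 41.8, 41.1, 39.7 and 39.5 CPM at E15.5 against 3.92, 7.33 and 10.1 (log2 2.52 ± 0.20, adjusted p = 4.3e-10). Every E15.5 specimen was thus lower in Six2 and higher in Cited1 than every E11.5 embryo.

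Of the other progenitor genes called, more fell than rose. Meox1, a homeobox gene of the early mesenchyme (ENSMUSG00000001493, mm10 chromosome 11, 101877510 to 101894374, minus strand), had 18.7, 17.8, 16.2 and 18.3 CPM at E15.5 and 52.8 to 94.8 at E11.5 (log2 -2.10 ± 0.16, adjusted p = 1.6e-10). Its relative Meox2 fell by 0.81 on the log2 scale, with overlapping stages. Eya1, a transcriptional coactivator and phosphatase, fell from the E11.5 range of 98.8 to 214 CPM to an E15.5 range of 60.4 to 66.0 CPM, Osr1 fell from the E11.5 range of 39.6 to 46.3 CPM to an E15.5 range of 14.6 to 17.2, and Rspo3 by 1.597 on the log2 scale. Itga8, the integrin of the mesenchyme, rose 1.76-fold (log2 0.80 ± 0.09), and Tmem100 and Pla2g7 also rose. Gdnf, the growth factor that attracts the bud, had 49.3, 51.3, 48.0 and 49.6 CPM against 31.5, 42.7 and 54.5. Its stages overlapped, and the log2 difference of 0.20 ± 0.15 did not pass the test (adjusted p = 0.26). It was called higher with batch 2 libraries alone (log2 0.35, adjusted p = 0.046). The same held in limma-voom with the specimen as a block and the batch number as a term (log2 0.28, adjusted p = 0.033). Sall1, Uncx, Capn6, Crym and Spock2 did not pass either.

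Ureteric bud tip genes had no common direction: of 16 tested, 6 were higher, 6 lower and 4 did not pass. These are 37.5% each way, against 26.4% higher and 26.0% lower of all genes tested. The median log2 fold change was 0.09. The receptor of Gdnf, Ret, had 60.6, 65.5, 56.2 and 58.7 CPM at E15.5 and 43.9, 67.0 and 78.9 at E11.5, which overlapped (log2 -0.08 ± 0.14, adjusted p = 0.65). Wnt11, Etv4 and Etv5, which act with Ret at the tip, gave log2 differences of 0.28, -0.06 and 0.25 and did not pass. Wnt11 was called higher with the E11.5 batch as a term (log2 0.28, adjusted p = 0.026), with batch 1 libraries (log2 0.46, adjusted p = 0.0096) and without E11.5 replicate 4 (log2 0.41, adjusted p = 0.012). Gfra1, the coreceptor of Ret, rose 1.69-fold (log2 0.68 ± 0.15, adjusted p = 0.00050). Gfra3, a coreceptor for another ligand of the Gdnf family, had 0.499, 0.494, 0.5261 and 0.595 CPM at E15.5 against 20.5, 25.6 and 36.1 at E11.5. This was a 50.9-fold decrease of the means (fitted log2 -5.56 ± 0.21, adjusted p = 2.7e-15). Slco4c1, an organic anion carrier, made the largest increase of the list, from the E11.5 range of 0.772 to 1.64 CPM to an E15.5 range of 25.5 to 29.1 CPM (log2 4.64 ± 0.27). Wnt6, Adamts18 and Sox9 fell by 2.57, 2.32 and 1.89 on the log2 scale.

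Trunk and collecting duct genes rose in 15 of 19 cases (78.9%, against 26.4% of all genes tested), 13 past the 2-fold test (against 7.15%). Of the others, 3 fell (15.8% of the list, against 26.0%) and 1 did not pass. The median log2 fold change was 2.12, or 3.04 without E11.5 replicate 6, 3.50 with batch 1 and 1.64 with batch 2 libraries. Aqp2, the vasopressin-regulated water channel, had 6.95, 5.48, 4.7 and 5.84 CPM at E15.5 and 2 counts in all at E11.5, a ratio of 297.8 with a 95% exact interval of 82.3 to 2462. Foxi1, the transcription factor of intercalated cells, had 0 counts at E11.5 and 5.46, 3.87, 4.25 and 5.19 CPM at E15.5, at least 162-fold higher. Tfcp2l1, a factor of the maturing duct, rose from 16.8 ± 3.44 CPM (SD, n = 6) to 291 ± 9.63 CPM (SD, n = 4), with a log2 fold change of 4.01 ± 0.19. The sodium channel subunit genes Scnn1b and Scnn1g rose by 4.88 and 3.88. Calb1, a calcium-binding protein of the bud, rose 2.79-fold (log2 1.43 ± 0.15, adjusted p = 3.6e-08). Wnt7b, the trunk signal that patterns the medulla, did not pass in all 10 specimens (log2 1.53 ± 0.69, adjusted p = 0.067): 5 E11.5 embryos had at most 5.42 CPM and replicate 6 had 55.7, above the 22.4 to 27.7 CPM of E15.5. Without replicate 6 the log2 fold change was 3.04 (adjusted p = 2.4e-09). In limma-voom with the specimen as a block and the batch number as a term it was 2.12 (adjusted p = 0.0026). Hsd11b2, the enzyme that inactivates corticosterone, fell from the E11.5 range of 19.1 to 53.9 CPM to an E15.5 range of 14.7 to 18.0 CPM (log2 -1.08 ± 0.27, adjusted p = 0.0017). Its call was lost without the embryos above 5% ribosomal RNA (log2 -0.41, adjusted p = 0.079).

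Urothelial genes were few, and their median changed with the specimens and libraries used. Upk3a, a plaque protein of the urothelium, had 0 counts at E11.5 and 8.47, 5.85, 7.71 and 7.48 CPM at E15.5, at least 255-fold higher. Shh, the signal of the lower duct, rose by 2.94 on the log2 scale. Krt5, a basal cell keratin, had 0.0644, 0.0412, 0.0752 and 0.104 CPM at E15.5, and at E11.5 lowest, median and highest values of 0.0593, 0.858 and 33.1, the highest in replicate 6. Its log2 fold change was -5.79 with that embryo (adjusted p = 0.0012) and -4.10 without it (adjusted p = 5.1e-05), and -2.33 in heterozygous kidneys (adjusted p = 0.27). Of 7 tested members of the list 2 rose, 2 fell and 3 did not pass. The shares, 28.6% each way, were near those of all genes tested (26.4% higher and 26.0% lower). The list's median was -0.67, or -0.29 without E15.5 replicate 2, 0.25 without E11.5 replicate 6, 2.36 with batch 1 and -1.03 with batch 2 libraries. It was 1.38 in heterozygous kidneys and 0.31 in limma-voom with the specimen as a block and the batch number as a term. Of these, 0.25, 2.36, 1.38 and 0.31 had the opposite sign.

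Stromal regulators fell more often than they rose. Of 16 tested, 8 were lower (50%, against 26.0% of all genes tested), 4 higher (25%, against 26.4%) and 4 did not pass. The median log2 fold change was -0.48. Foxd1, which marks the cortical stroma (ENSMUSG00000078302, mm10 chromosome 13, 98354242 to 98359305, plus strand), had 58.5, 55.5, 54.1 and 53.3 CPM at E15.5 and 93.4, 146 and 173 at E11.5 (log2 -1.396 ± 0.17, adjusted p = 3.9e-07). Tbx18, a factor of the ureteric mesenchyme, fell 4.58-fold, and Meis1, Meis2 and Fat4 fell by 1.403, 1.26 and 1.35 on the log2 scale. Tcf21 rose 1.65-fold, and Aldh1a2, the retinoic acid synthase, did not pass (log2 -0.29 ± 0.14, adjusted p = 0.078). Aldh1a2 was called lower in limma-voom with the specimen as a block and the batch number as a term (log2 -0.34, adjusted p = 0.026). It was also called lower without E11.5 replicate 2 or 6 (adjusted p = 0.033 and 0.018). Penk, an opioid precursor gene, stood out among them with 101, 94.9, 99.5 and 103 CPM against 0.53, 0.706 and 4.39 (log2 5.98 ± 0.35, adjusted p = 4.1e-12). The stages of Foxd1, Tbx18, Tcf21 and Penk did not overlap.

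Matrix genes of the stroma rose, with 13 of 18 higher (72.2%, against 26.4% of all genes tested) and 4 lower (22.2%, against 26.0%). Their median log2 fold change was 1.61. Dcn, the proteoglycan decorin (ENSMUSG00000019929, mm10 chromosome 10, 97479609 to 97518143, plus strand), had 144, 119.6, 152 and 141 CPM at E15.5 and 6.4, 12.1 and 15.96 at E11.5 (log2 3.62 ± 0.23, adjusted p = 9.7e-12). Its relatives Lum and Ogn rose 9.08-fold and 42.7-fold, and Postn, a matricellular protein gene, 4.00-fold. Col1a1 did not pass (log2 0.05 ± 0.15, adjusted p = 0.82): its E15.5 values of 770.2, 701, 772 and 783 CPM lay within or near the 398 to 786 CPM of E11.5, where the lowest embryo was replicate 6, without which the log2 difference was -0.04 (adjusted p = 0.81). Mfap4, a microfibril protein gene, fell 2.33-fold (log2 -1.23 ± 0.08), and Fn1, Col5a1 and Vim fell by 0.79, 0.48 and 0.25 on the log2 scale.

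Ren1, the renin gene, was among the largest increases. Ren1 (ENSMUSG00000070645, mm10 chromosome 1, 133350510 to 133360325, plus strand) had 123, 106, 96.0 and 116 CPM at E15.5 and 3 counts in all at E11.5, a ratio of 3810 with a 95% exact interval of 1304 to 18480. Akr1b7, an enzyme gene of renin cells, rose 20.7-fold (log2 4.31 ± 0.29, adjusted p = 2.9e-11), and Agtr1a, an angiotensin receptor gene, by 2.90. Of 15 renin, mural and smooth muscle genes, 7 rose (46.7%, against 26.4% of all genes tested), 3 fell (20%, against 26.0%) and 5 did not pass. The median log2 fold change was 0.54, or 0.36 without E11.5 replicate 1, 0.37 without replicate 6 and 0.31 with batch 1 libraries. Acta2, the smooth muscle actin gene, did not pass (log2 0.54 ± 0.57, adjusted p = 0.45). Its E11.5 values ran from 12.5 to 125 CPM, with replicates 1 and 6 at 12.5 and 15.6 and the others at 80.9 CPM or more, against 121, 104, 126 and 119 at E15.5, and the log2 fold change was 0.36 without replicate 1 (adjusted p = 0.61) and 0.37 without replicate 6 (adjusted p = 0.60). Myh11, the smooth muscle myosin gene, had 35.1, 22.3, 48.4 and 39.3 CPM against 2.17 to 16.9 (log2 1.46 ± 0.49, adjusted p = 0.016). Des fell 3.46-fold and Notch3 fell by 1.19 on the log2 scale.

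Endothelial genes rose slightly. Of 21 tested, 12 were higher (57.1%, against 26.4% of all genes tested), 1 lower (4.76%, against 26.0%) and 8 did not pass. The median log2 fold change was 0.51. Pecam1, an adhesion protein gene of all endothelium, had 153, 151, 145 and 152 CPM at E15.5 and 49.3, 93.3 and 115 at E11.5 (log2 0.76 ± 0.18, adjusted p = 0.0010). Ehd3, which is enriched in glomerular endothelium, rose 2.15-fold and the receptor gene Tek 2.31-fold. Cdh5, the adherens junction cadherin, overlapped between stages (log2 0.06 ± 0.25, adjusted p = 0.86). Vwf, the von Willebrand factor gene, was the member called lower, with 10.7, 9.88, 10.6 and 11.02 CPM against 23.2, 127 and 161, the lowest again in replicates 6 and 1 (log2 -3.35 ± 0.50, adjusted p = 6.2e-06). Without replicate 1 or 6 its log2 fold change was -3.51 or -3.52. Summed over the list, replicates 1 and 6 had 714 and 520.4 CPM, and the other 4 embryos 1204 CPM or more, against 1345 to 1414 CPM at E15.5. Macrophage genes gave 4 higher (22.2%, against 26.4% of all genes tested), 2 lower (11.1%, against 26.0%) and 12 not passing of 18 tested. Csf1r, the macrophage growth factor receptor gene, had 23.1, 23.1, 20.2 and 22.2 CPM against 14.6 to 31.3 (log2 -0.05 ± 0.22, adjusted p = 0.86). Ptprc, the pan-leukocyte CD45 gene, rose 2.95-fold (log2 1.48 ± 0.13, adjusted p = 3.3e-09). Mrc1, a mannose receptor gene, rose 1.63-fold, and that call was lost with batch 2 libraries alone (log2 0.51, adjusted p = 0.090) and in heterozygous kidneys (log2 0.23, adjusted p = 0.32).

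**Figure D3:**
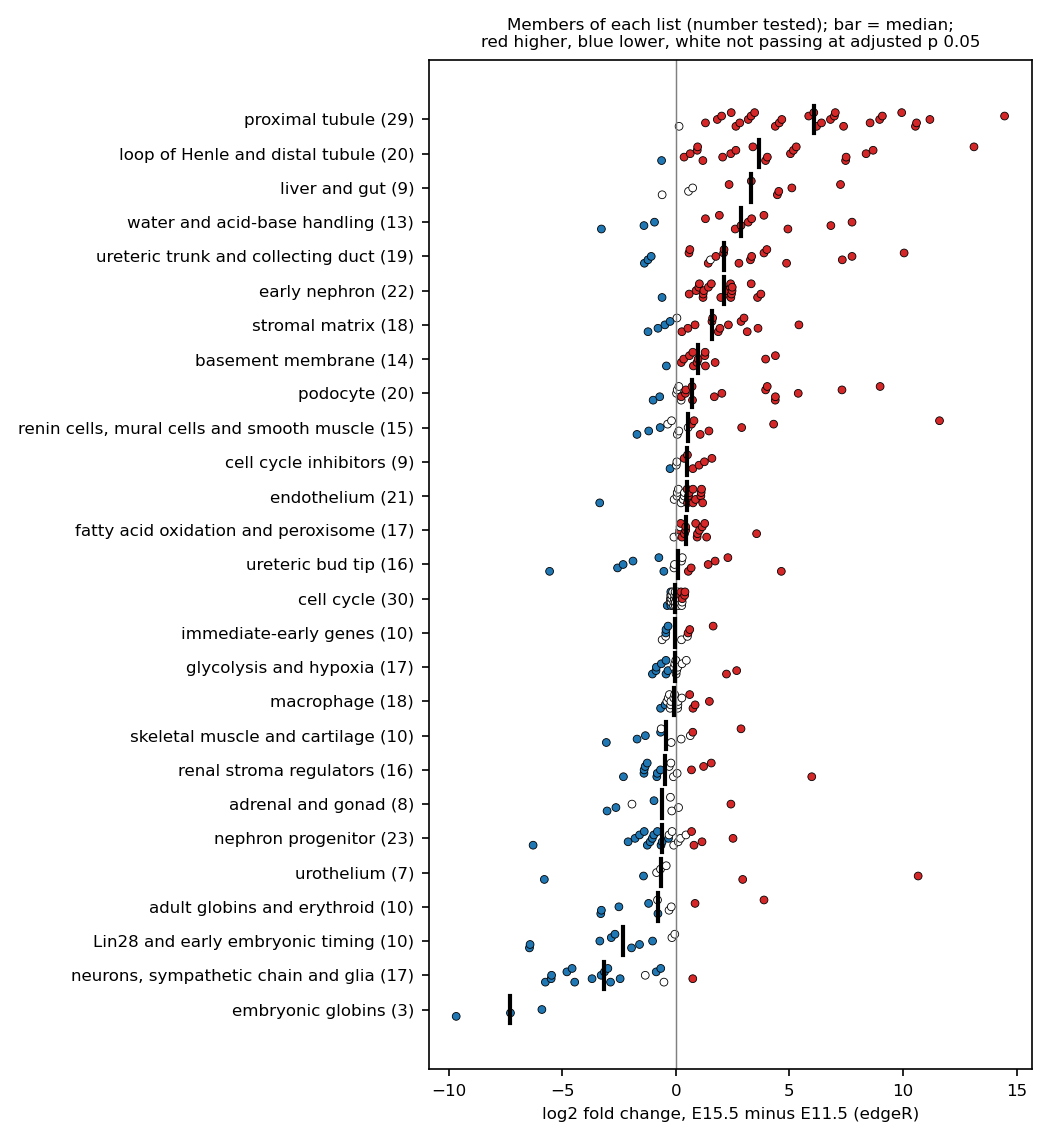
Log2 fold change (horizontal axis, E15.5 minus E11.5) of every tested member of the 27 lists (rows, with the number tested), red where called higher, blue where called lower and white where not passing, with a black bar at each median. The medians run from 6.07 for proximal tubule to -7.28 for embryonic globins, and cell cycle genes lie between -0.38 and 0.40.

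Globin genes changed their composition with stage. The 3 embryonic globin genes, which serve primitive red cells of the yolk sac, summed to 1993 to 8480 CPM at E11.5 and to 51.7 to 63.1 CPM at E15.5. Hbb-bh1 (ENSMUSG00000052217, mm10 chromosome 7, 103841637 to 103843164, minus strand) had 0.483, 0.721, 0.496 and 0.402 CPM at E15.5 and 229, 407 and 800.1 at E11.5 (log2 -9.67 ± 0.51, adjusted p = 5.5e-13). Hba-x fell 145-fold and Hbb-y 60.2-fold. Adult Hbb-bs rose from the E11.5 range of 12.4 to 68.8 CPM to an E15.5 range of 497 to 515 CPM (log2 3.88 ± 0.42, adjusted p = 7.7e-08), while its near-identical neighbour Hbb-bt had 169.6 to 177 against 41.1 to 192 CPM (log2 0.85 ± 0.35, adjusted p = 0.046). The Hbb-bt call was lost without E11.5 replicate 2, 3 or 6 (adjusted p = 0.13, 0.079 and 0.078), without any 1 E15.5 specimen (adjusted p = 0.063 to 0.13), with the wild-type specimens alone (adjusted p = 0.092) and with batch 1 libraries (adjusted p = 0.078). Hbb-bs and Hbb-bt share sequence, so the split of reads between them is uncertain. Hba-a1 and Hba-a2, which code for the same adult alpha chain, did not pass (log2 -0.81 and -0.20). The red cell regulator gene Gata1 fell 9.22-fold, and Klf1 and the anion exchanger gene Slc4a1 fell by 2.51 and 3.28 on the log2 scale.

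Genes of the Lin28 and early embryonic timing list fell together: 8 of 10 tested were lower (80%, against 26.0% of all genes tested). Past the 2-fold test were 7 (against 4.09%), and 0 were higher (against 26.4%). The median log2 fold change was -2.32. Lin28 proteins bind RNA and block the maturation of the let-7 microRNAs, which in turn repress Hmga2 and Igf2bp1. Lin28a (ENSMUSG00000050966, mm10 chromosome 4, 134003330 to 134018841, minus strand) had 0.145, 0.165, 0.105 and 0.149 CPM at E15.5 and 11.2, 13.4 and 22.04 at E11.5. This was a 111-fold decrease of the means (fitted log2 -6.45 ± 0.35, adjusted p = 8.2e-13). Its paralog Lin28b had 5.18, 6.05, 5.44 and 5.23 CPM against 30.1, 35.6 and 49.4 (log2 -2.68 ± 0.18, adjusted p = 2.6e-11). Hmga2, a chromatin protein gene, had 60.3, 64.4, 62.5 and 69.0 CPM against 283, 457 and 704 (log2 -2.84 ± 0.25, adjusted p = 2.4e-09). None of these groups overlapped. Igf2bp1, an RNA-binding protein gene, fell 3.09-fold, Igf2bp2 2.04-fold and Igf2bp3 by 3.35 on the log2 scale, and Sall4, a factor of pluripotent cells, 120.1-fold. Myc and Mycn did not pass (log2 -0.05 and -0.17). The list's median was -2.48 with batch 1 and -1.67 with batch 2 libraries.

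Hox genes, which specify position along the body axis, fell in 27 of 36 cases (75%, against 26.0% of all genes tested). They rose in 3 (8.33%, against 26.4%) and did not pass in 6. The largest decreases were those of Hoxa13, Hoxb1 and Hoxd13. Hoxa13 had 0.0966, 0.0206, 0.165 and 0.164 CPM against 6.37, 9.82 and 33.1 (log2 -6.57 ± 0.74, adjusted p = 1.2e-07), Hoxd13 0.386, 0.247, 0.406 and 0.416 against 7.64, 11.1 and 53.1 (log2 -5.14 ± 0.65) and Hoxb1 0.0644, 0.0412, 0.0301 and 0.0595 against 2.51, 4.9 and 6.44 (log2 -6.34 ± 0.52). E11.5 replicate 3 held the highest values of Hoxa13 and Hoxd13. The kidney Hox11 genes Hoxa11, Hoxc11 and Hoxd11 fell by 0.65, 1.80 and 1.04 on the log2 scale. All 11 tested Hoxa genes and all 7 tested Hoxc genes were lower, whereas of 9 Hoxb genes 2 were lower and 1, Hoxb7, was higher (log2 1.096 ± 0.10). Hoxd8 and Hoxd9 rose by 1.25 and 0.27, and the Hoxd9 call was lost without E15.5 replicate 2 (adjusted p = 0.060).

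Markers of tissues next to the kidney moved with stage. Neuronal, sympathetic and glial genes fell in 14 of 17 cases (82.4%, against 26.0% of all genes tested). Their median log2 fold change was -3.14, and their summed level was 102 to 289 CPM at E11.5 and 81.7 to 88.7 CPM at E15.5. Hand2, Dbh and Th, genes of sympathetic cells, fell 57.7-fold, 42.08-fold and 22.4-fold. E15.5 replicate 1 had the highest Dbh and Th of its stage, and without it their log2 fold changes were -7.24 and -6.15, against -5.47 and -4.57 with it. Erbb3 was the member called higher (log2 0.75 ± 0.20, adjusted p = 0.0028), and its call was lost with batch 2 libraries alone (adjusted p = 0.062). Isl1, a homeobox gene of neurons and of mesenchyme near the cloaca (ENSMUSG00000042258, mm10 chromosome 13, 116298281 to 116309689, minus strand), had 0.209, 0.0412, 0.15 and 0.0892 CPM at E15.5 and 24.8, 30.9 and 99.7 at E11.5 (log2 -8.01 ± 0.56, adjusted p = 7.3e-11). Skeletal muscle and cartilage genes summed to 382 to 616 CPM against 87.8 to 88.8 CPM, most of it Col2a1, which fell 8.48-fold (log2 -3.06 ± 0.19). Of 10 tested, 4 fell (40%, against 26.0% of all genes tested), 2 rose (20%, against 26.4%) and 4 did not pass. Acan, also of this list, went against Col2a1 and rose by 2.87 on the log2 scale (adjusted p = 9.5e-10). Myod1, the muscle-determining factor, had 0.0593 to 0.296 CPM at E11.5 and was not tested.

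Liver and gut genes went up, with 6 of 9 higher (66.7%, against 26.4% of all genes tested) and 0 lower (against 26.0%). They summed to 1.29 to 16.9 CPM at E11.5 and 72.5 to 131 CPM at E15.5. Afp, the fetal serum protein gene, had 76.4, 47.9, 43.5 and 53.3 CPM at E15.5 and 0.0472, 0.455 and 9.21 at E11.5 (log2 4.53 ± 0.55, adjusted p = 4.2e-07). Alb had 20.5, 1.19, 2.12 and 4.52 CPM against 0.0883 to 3.45, with overlap. Its call was lost without E15.5 replicate 1 (log2 1.20, adjusted p = 0.14) and with batch 2 libraries alone (log2 1.34, adjusted p = 0.27). It was also lost with the wild-type specimens alone (adjusted p = 0.12). The same held in limma-voom with the specimen as a block and the batch number as a term (adjusted p = 0.16). Vil1 of this list, an actin-bundling protein gene, is also a brush border gene of the proximal tubule. Adrenal and gonad genes summed to 8.02 to 15.6 CPM at E11.5 and 7.598 to 8.19 CPM at E15.5. Of 8 tested, 1 rose (12.5%, against 26.4% of all genes tested), 3 fell (37.5%, against 26.0%) and 4 did not pass. Nr5a1, which defines steroid-producing cells, had 0 to 0.516 and 0.21 to 0.322 CPM. How far tissue beside the kidney contributed to each of these values, or to the decreases of the Hox13 genes, was not tested.

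**Figure D4:**
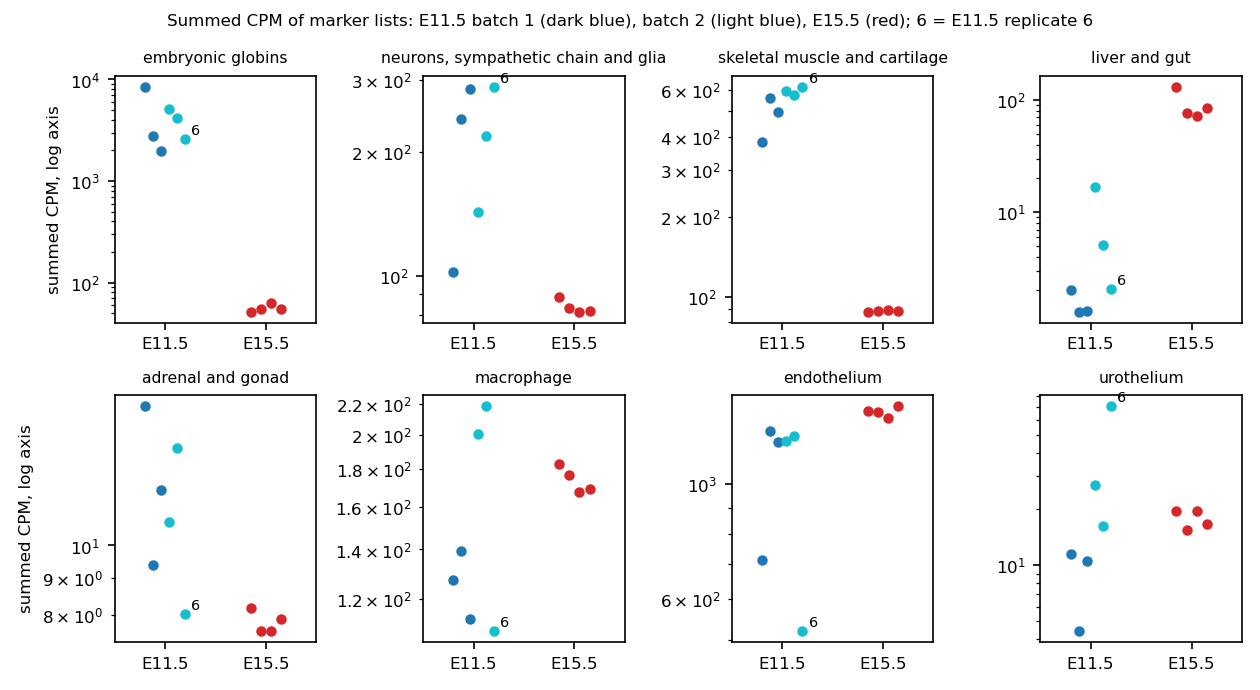
Summed CPM (vertical axes, log scale) of 8 marker lists in each wild-type specimen, with E11.5 batch 1 in dark blue, batch 2 in light blue and E15.5 in red; the digit marks E11.5 replicate 6. Embryonic globin, neural and muscle or cartilage sums were higher in every E11.5 embryo than at E15.5, liver and gut sums were lower, and macrophage sums overlapped.

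Cell cycle genes differed little. Of 30 tested, 22 did not pass, 5 were higher (16.7%, against 26.4% of all genes tested) and 3 lower (10%, against 26.0%). In this list 0 passed the 2-fold test, and every log2 fold change lay between -0.38 and 0.40. Top2a, the topoisomerase of dividing cells (ENSMUSG00000020914, mm10 chromosome 11, 98992943 to 99024189, minus strand), had 1111, 1164, 1119 and 1089 CPM at E15.5 and 1019.9, 1062 and 1172 at E11.5, with overlap (log2 0.11 ± 0.06, adjusted p = 0.14). Mki67, the gene of the Ki-67 antigen, fell from the E11.5 range of 745 to 983 CPM to an E15.5 range of 613 to 668 CPM (log2 -0.38 ± 0.08, adjusted p = 0.00043). Pcna, the sliding clamp of replication, rose from the E11.5 range of 159 to 196 CPM to an E15.5 range of 208 to 221 CPM (log2 0.28 ± 0.07), and Ccna2 by 0.39. Ccnb1 and Ccne2, both called higher, each lost the call in other settings: Ccnb1 with the wild-type specimens alone (adjusted p = 0.095), without the sex term (adjusted p = 0.066) and with batch 1 libraries (adjusted p = 0.096), and Ccne2 without E11.5 replicate 4, 5 or 6 (adjusted p = 0.12, 0.066 and 0.066) or any 1 E15.5 specimen (adjusted p = 0.059 to 0.097), and in heterozygous kidneys (adjusted p = 0.099). Inhibitors of the cycle rose in 6 of 9 cases (66.7%, against 26.4% of all genes tested) and fell in 1 (11.1%, against 26.0%). Cdkn1a, the p21 gene, rose 2.32-fold and Cdkn2c, the p18 gene, 2.98-fold, while Cdkn1c, the p57 gene, did not pass in all 10 specimens (log2 0.02 ± 0.16, adjusted p = 0.94). Cdkn1c was called higher with batch 1 libraries (0.27, adjusted p = 0.025) and lower with batch 2 (-0.28, adjusted p = 0.014). In 26 promoters of 25 cell cycle genes, the E2F letters TTTCCCGC, TTTGGCGC, TTTCGCGC or TTTGCCGC occurred in 9 (34.6%) and CCAAT in 21 (80.8%), on either strand. Among all promoters the shares were 2.26% and 37.4%, and among promoters of genes tested 3.55% and 37.0%. These are descriptions with no test, and a match is not a measured binding site.

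Fatty acid oxidation and peroxisome genes rose in 14 of 17 cases (82.4%, against 26.4% of all genes tested), with 0 lower (against 26.0%). The changes were mostly small (median log2 fold change 0.44). Cpt1a, which brings fatty acids into mitochondria, had 91.1, 92.8, 89.0 and 93.6 CPM at E15.5 and 28.4, 35.1 and 39.5 at E11.5 (log2 1.36 ± 0.10, adjusted p = 2.1e-10). Acadm, a dehydrogenase of medium chains, rose 2.08-fold, and Ppara, the nuclear receptor for fatty acids, 2.52-fold. Glycolysis and hypoxia genes gave 7 lower (41.2%, against 26.0% of all genes tested), 2 higher (11.8%, against 26.4%) and 8 not passing of 17. The glucose carrier gene Slc2a1 fell from the E11.5 range of 69.0 to 109.6 CPM to an E15.5 range of 42.8 to 49.7 CPM (log2 -0.87 ± 0.11, adjusted p = 6.1e-07) and Hk2 1.55-fold, but Ldha and Pgk1 overlapped (log2 0.01 and -0.05). Egln3 and Ndrg1, both known as hypoxia-responsive, rose by 2.68 and 2.23.

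Basement membrane genes rose in 13 of 14 cases (92.9%, against 26.4% of all genes tested), with a median log2 fold change of 0.96. Lama1 had 375, 406, 385 and 395 CPM at E15.5 against 102, 116 and 151 (log2 1.73 ± 0.09, adjusted p = 5.7e-13), and Lamb1 and Lama5, laminin chains of tubules and glomeruli, rose 2.45-fold and 1.93-fold. Col4a3 and Col4a4, the collagen chains of the mature glomerular membrane, rose 17.6-fold and 21.3-fold from levels under 1 CPM. Hspg2, the perlecan gene, fell slightly, with overlap (log2 -0.42 ± 0.11, adjusted p = 0.0029). Lamb2 rose 1.18-fold, a call lost with batch 2 libraries alone (adjusted p = 0.20), with the wild-type specimens alone (adjusted p = 0.075) and without the embryos above 5% ribosomal RNA (adjusted p = 0.20).

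Of 315 solute carrier genes tested, 162 were higher (51.4%) and 60 lower (19.0%), and of 18 claudins 15 (83.3%) and 1 (5.56%). For 32 cytochromes P450 the numbers were 21 (65.6%) and 4 (12.5%), and for 8 aquaporins 7 (87.5%) and 1 (12.5%). Of all genes tested, 26.4% were higher and 26.0% lower. Cldn2, the leaky junction protein gene of the proximal tubule, had 38.5, 32.0, 33.9 and 34.8 CPM at E15.5 and 3 counts in all at E11.5, a ratio of 1208 with a 95% exact interval of 413 to 5860. Cldn19, a junction protein gene of the thick ascending limb, rose 34.6-fold and Aqp4, a basolateral water channel gene, 32.3-fold. Aqp1, the water channel gene of the proximal tubule, had 42.9, 39.6, 45.0 and 43.9 CPM against 1.59, 4.96 and 6.81 (log2 3.19 ± 0.30, adjusted p = 7.9e-09). Cldn13 was the claudin called lower (8.4-fold) and Aqp8 the aquaporin called lower (21.2-fold). Car4, a carbonic anhydrase gene of the brush border, rose 15.9-fold. Car2, the cytosolic form, had 31.7, 26.0, 23.5 and 24.03 CPM against 23.0, 42.5 and 99.8 with overlap (log2 -0.94 ± 0.34, adjusted p = 0.025). Its call was lost without E11.5 replicate 1 or 4, without E15.5 replicate 2, 3 or 4 (adjusted p = 0.053 to 0.065 over these), with the wild-type specimens alone (adjusted p = 0.095), with batch 1 libraries (adjusted p = 0.24) and in heterozygous kidneys (adjusted p = 0.49).

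The 12 largest increases by fitted fold change, among genes averaging at least 10 CPM at E15.5, included Slc34a1, Slc12a1, Ren1 and Hnf4a. The others were Mep1a and Mep1b, the subunits of the brush border protease meprin, Slc6a18, an amino acid carrier, Spp2, Acsm2, Ugt2b37, Sult1d1 and Keg1. Of the 12, 8 had 0 counts at E11.5, so their folds are known only as lower bounds and the order among the 12 is not fixed. Mep1a had 80.6, 73.3, 72.9 and 76.8 CPM at E15.5 and 0 counts in the 6 E11.5 embryos, at least 2623-fold higher. Mep1b and Slc6a18 were likewise at 0 at E11.5 and at least 709-fold and 879-fold higher. At least 43 tested genes had 0 counts at E11.5 and counts in all 4 E15.5 specimens. The reverse held for at least 1 gene, Evx2, a homeobox gene beside the Hoxd cluster (a gene named after its values were seen). Evx2 was at least 243-fold lower at E15.5. These numbers of genes cannot be compared directly, because the E15.5 specimens were sequenced more deeply. The floor of 3 counts over the group stood for 0.0289 CPM at E11.5 and 0.0123 CPM at E15.5. At the same low level, 0 counts were thus more likely at E11.5. Among the 12 largest decreases were the 3 embryonic globin genes, Isl1, Hoxa13, Grin2c, Lin28a, Sall4, AI593442, Gfra3 and Dbh. Grin2c, a glutamate receptor subunit gene, had 0.0966, 0.144, 0.105 and 0.149 CPM at E15.5 and 4.06, 9.34 and 25.2 at E11.5 (log2 -6.47 ± 0.59, adjusted p = 5.4e-09).

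The same contrast was available in other specimens of the series, the heterozygous Six2 kidneys (4 at E15.5 and 5 at E11.5), which share no sample with the wild-type groups but do share the fit. Of the 9108 genes called in wild-type kidneys, 9069 had the same sign there (99.6%), and 7873 were also called with that sign, which is 86.4% of the wild-type calls and 89.9% of the 8760 heterozygous calls. In 0 genes were the calls opposite. The 8760 heterozygous calls were made among all 17362 genes tested. In heterozygous kidneys, too, stage and sequencing run cannot be told apart, so this agreement does not separate them. Cubn rose by 5.04, Lrp2 by 3.29 and Cited1 by 2.23 on the log2 scale in heterozygous kidneys, and the log2 fold changes of Six2, Meox1 and Lin28a were -1.09, -2.30 and -6.26. The difference between the stage effects of the genotypes was called for 1 gene, Esr1, the estrogen receptor gene, with edgeR, and 314 genes had an unadjusted p under 0.05. Esr1 rose from 0.345 ± 0.376 CPM (SD, n = 6) to 7.39 ± 0.393 CPM (SD, n = 4) in wild-type kidneys. Its log2 fold change was 4.26 ± 0.34 there and 0.34 ± 0.25 in heterozygous kidneys, a difference of -3.92 ± 0.44 (SE, adjusted p = 0.00017). Heterozygous levels are not given here, so the small change does not say whether Esr1 counts were low or high at both stages. The cause was not tested.

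**Figure D5:**
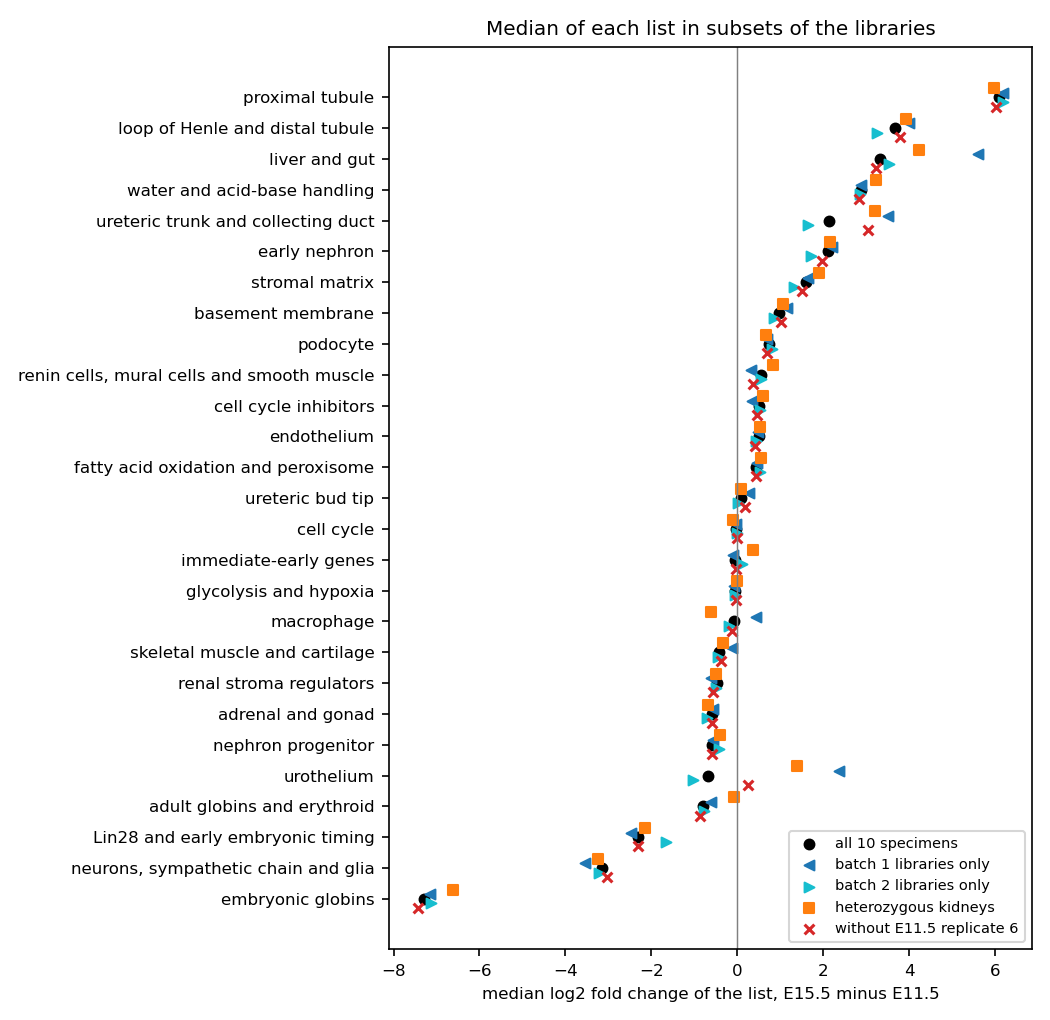
Median log2 fold change of each list (horizontal axis, E15.5 minus E11.5) in all 10 specimens (black circles), with batch 1 or batch 2 libraries alone (triangles), in heterozygous kidneys (squares) and without E11.5 replicate 6 (crosses). Proximal tubule medians lie between 5.97 and 6.17, while the urothelium median changes sign between the sets.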

How the data were processed

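RNA was sequenced from whole embryonic kidney, and the deposited files give counts per gene symbol. The authors aligned reads with STAR 2.4.0h1 to mm10 and counted them with featureCounts 1.4.6, per the submitters' processing notes. The annotation and the strand setting are not given in the sources used here, so antisense, overlapping and near-identical genes may share counts. 0 columns were left without a sample. The 2 runs of an E15.5 specimen were summed. Summed counts per specimen were 13.4 to 65.1 M (1e6), and counting intervals cover counting error only.

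Counts of all 24 specimens entered edgeR 4.0.16 (R 4.3.3) with a mean per group and a sex term, TMM scaling and filterByExpr (minimum count 10, total 15). The quasi-likelihood test, and glmTreat against a 2-fold change, used Benjamini-Hochberg adjustment at 0.05. On simulated counts the quasi-likelihood test called 50 of 50 genes changed 4-fold and 38 of 50 changed 2-fold upward. It called 42 of 50 lowered to 0.5 of their level, 11 of 50 raised 1.5-fold and 10 of 16763 unchanged genes. The simulated counts had the same spread for all genes and no batch difference, unlike the data, so these shares need not hold here. The glmTreat test was not simulated. CPM values are TMM-scaled. A fold printed for a gene is the ratio of mean CPM, except for lower bounds and ratios given with an interval. Log2 fold changes come from the fit with its sex term, so the fold and the log2 value can differ. A group with 0 counts was set to a floor of 3 counts over the group, and 95% exact intervals were used for 1 to 3 counts. For the key genes, an exact two-sided permutation test of log2 CPM (pseudocount 0.5) over 210 splits of the 10 specimens was also run; the smallest p it can give is 0.00476. Alternatives used limma 3.58.1 and DESeq2 1.42.0 and are named in the closing section. Principal components used the 10 wild-type specimens. Ribosomal RNA was summed over 360 symbols, a set chosen after the counts were seen.

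The 27 lists (432 genes), 7 families and members were chosen with earlier results of these data known. Named were key genes of each list, each list's largest and smallest called changes, the 3 largest changes per direction in each family, and the 12 largest increases and decreases past the 2-fold test with at least 10 CPM at the higher stage and no overlap. Gene positions are from GENCODE for mm10. Some genes that the rule names, and 1 motif that was searched, are not reported here.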

Additional observations from a re-analysis of the deposited data

Results flagged for a closer look

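A specimen far from the others of its stage was looked for in 110 genes and both stages, 220 checks in all, with Dixon's test. It marked 15 values, of which 13 are given here, and chance alone marks about 1 in 20 groups.

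E11.5 replicate 6 held 5 of them. It had 6.47 CPM of Irx1, where the nearest embryo had 1.23, 55.7 CPM of Wnt7b, where the nearest had 5.42, and 0.661 CPM of Nphs1, where the nearest had 0.0681. It was also high for Hk2, at 117 CPM against 94.5, and low for Col1a1, at 398 CPM against 644. Of the other E11.5 embryos, replicate 3 had 99.7 CPM of Isl1 (nearest 41.2) and 0.0593 CPM of Slc12a1, which is 1 count where the others had 0.

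At E15.5, replicate 1 was high for the sympathetic genes Th, at 1.08 CPM against 0.149 in the nearest specimen, and Dbh, at 1.88 against 0.193. Without it the log2 fold changes were -6.15 and -7.24, against -4.57 and -5.47 with it. Its Hbb-bs, at 515 CPM, lay above the nearest value of 499. Replicate 2 was low for Ugt2b37, at 7.80 CPM against 18.4 and for Col1a1, at 701 against 770.2, and it was high for Pcna, at 221 against 209.

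The stage effect differed between genotypes in Esr1, where the heterozygous minus wild-type difference was -3.92 ± 0.44 (log2, SE, adjusted p = 0.00017 with edgeR). Its cause was not tested.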

How the results depend on the processing

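The counts of genes called stayed within 1.5 times of the reported ones in all 84 comparisons, and no scaling moved the median of all genes by over 0.1. Leaving out 1 wild-type specimen at a time gave 3977 to 4627 genes higher and 3724 to 4569 lower. The wild-type specimens alone gave 3797 and 3514, DESeq2 4832 and 4809, batch 1 libraries 5124 and 4713, and batch 2 libraries 4923 and 4533. No paired animals are labelled. In limma-voom over 14 libraries, with the specimen as a block and the batch number as a term, 5249 genes were higher and 5037 lower. Of the 9108 calls, 8590 were kept. That term takes a batch number to mean the same run at both stages, which no label says. Of the list medians, 555 moved by less than the spread and 38 by more, among them the urothelium median, which changed sign. Among named genes, 68 values lost the call, 49 gained it and 4 reversed: with batch 1 libraries, Upk1b was 1.53, Csf1r 0.34 and C1qa 0.45, and with batch 2 libraries Cdkn1c was -0.28 (log2). The cause was not tested. Depth limits genes under 1 CPM at E11.5, where an embryo had 13.4 to 21.7 M (1e6) counts.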
